A study of Mus musculus with 6 samples.

Results

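The 6 genes described here are the friend-of-GATA genes Zfpm1 and Zfpm2 and the GATA genes Gata2, Gata3, Gata4 and Gata6, out of 48526 genes in the count tables. They were measured in 6 cultures of primary renal tubular epithelial cells, grown from digested kidney cortex of mice aged 4 to 5 weeks. The 3 cultures named KO came from Setd2(F/F)Ksp-Cre+ mice, in which floxed alleles of the histone H3 lysine 36 methyltransferase gene Setd2 are exposed to a Cre recombinase under the Ksp-cadherin (Cdh16) promoter of tubule epithelium. The 3 cultures named WT came from Setd2(F/F) mice, which carry the same floxed alleles and no Cre, so effects of Cre and of the deletion cannot be told apart. No step of the protocols selects tubular cells, and the labels do not say whether each replicate is a separate animal, so the spread between libraries may be partly technical. Counts over the whole Setd2 gene ranged from 152 to 185 CPM across WT and from 154 to 163 CPM across KO, and do not check a deletion of single exons. The 6 genes were taken by name from the FOG and GATA families, which were chosen by earlier results on the KO against WT fold change, where Zfpm2 has one of the lowest values. The differences of the 6 genes between KO and WT are therefore a description. Where the text says which of them passed the threshold of the fit over all genes, that is no independent evidence of a difference.

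GATA factors are transcription factors with a pair of zinc fingers that bind DNA at GATA-containing sites. Friend-of-GATA proteins (FOG1, made from Zfpm1, and FOG2, made from Zfpm2) are multi-zinc-finger cofactors that do not bind these sites themselves. They attach to the amino-terminal finger of a GATA factor and can recruit the NuRD and CtBP corepressor complexes. FOG1 is best known as the partner of GATA1 in red cell and megakaryocyte development, and FOG2 as the partner of GATA4 in heart and gonad. In the kidney, Gata3 is required for the nephric duct and stays on in the collecting system, and Gata2 acts in the urogenital tract, the collecting duct and the endothelium.

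Positions are those of GENCODE M21 on GRCm38, the assembly that mm10 names. Zfpm2 (ENSMUSG00000022306, chromosome 15, 40655035 to 41104592, plus strand) spans 449558 bases and is the longest of them. Zfpm1 (ENSMUSG00000049577, chromosome 8, 122282141 to 122337251, plus strand) spans 55111 bases, Gata2 (ENSMUSG00000015053, chromosome 6, 88193891 to 88207032, plus strand) 13142 bases and Gata3 (ENSMUSG00000015619, chromosome 2, 9857078 to 9890034, minus strand) 32957 bases.

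Promoter windows of RefSeq (build GRCm38.p6) matched 3 of the 6 members, Zfpm1, Gata2 and Gata3, at 4 start sites. They are printed for their content of CG dinucleotides, the sites of DNA methylation. The promoter of Zfpm2 was not analysed here, so the windows are compared with all promoters and not with Zfpm2. The 250 bases before the start are printed 5′ to 3′ on the gene's strand, with each CG in capitals. The coordinates are chr8:122281891-122282140 (plus strand) for Zfpm1, chr6:88193641-88193890 (plus strand) for the outer start of Gata2 and chr2:9878601-9878850 (minus strand) for Gata3, which lies inside the annotated gene.
Zfpm1: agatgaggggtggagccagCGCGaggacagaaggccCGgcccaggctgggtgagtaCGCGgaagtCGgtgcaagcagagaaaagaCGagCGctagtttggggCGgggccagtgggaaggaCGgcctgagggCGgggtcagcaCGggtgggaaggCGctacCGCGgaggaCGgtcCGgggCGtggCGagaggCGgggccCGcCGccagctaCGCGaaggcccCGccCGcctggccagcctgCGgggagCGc
Gata2: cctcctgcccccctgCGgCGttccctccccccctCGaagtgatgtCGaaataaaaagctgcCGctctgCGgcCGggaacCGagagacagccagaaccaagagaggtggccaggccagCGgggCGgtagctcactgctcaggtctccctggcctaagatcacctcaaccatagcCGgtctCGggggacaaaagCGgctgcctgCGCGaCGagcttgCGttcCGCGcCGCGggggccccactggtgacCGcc
Gata3: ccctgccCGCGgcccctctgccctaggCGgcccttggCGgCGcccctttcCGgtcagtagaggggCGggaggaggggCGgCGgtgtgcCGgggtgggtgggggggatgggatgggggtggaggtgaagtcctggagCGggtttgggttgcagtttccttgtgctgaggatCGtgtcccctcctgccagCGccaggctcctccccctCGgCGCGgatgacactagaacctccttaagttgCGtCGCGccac
These windows held 28 CG dinucleotides for Zfpm1, 22 for Gata2 and 19 for Gata3. Over all 32851 RefSeq promoter windows of that length the median was 6, with quartiles of 2 and 16. The 4 letters GATA, searched on both strands, were in none of the 4 windows of these genes (the second Gata2 start included), while 53.6% of all windows hold them at least once. The 4 windows were 67.2% to 74% G or C, and the comparison was not matched for base composition. A window without the letters says nothing of GATA binding elsewhere.

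Zfpm2 was the member that was lower in KO. Its read counts were 669, 732 and 645 in WT replicates 1 to 3 and 191, 186 and 136 in KO replicates 1 to 3. Scaled to library size these are 7.75, 6.89 and 6.68 CPM for WT, against 2.17, 1.95 and 1.39 CPM for KO (counts per 1e+06 reads, on library sizes adjusted with TMM factors). Every KO library lay below every WT library, and the lowest WT value was more than 3 times the highest KO value. The fitted log2 fold change was -1.95 ± 0.16 (SE), a level 3.88 times as high in WT. Among the 17571 genes that entered the edgeR fit, 5 had a lower log2 fold change.

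Its paralog Zfpm1 was higher in KO. Its levels were 9.69, 13.5 and 12.5 CPM in the WT libraries, against 17.6, 17.4 and 19.5 CPM in KO. The groups did not overlap, and WT replicate 1 was the lowest library. The log2 fold change was 0.61 ± 0.12 (SE), or 1.53-fold.

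The GATA genes that the cultures express moved in the same direction as Zfpm1. Gata2 was at 14.1, 19.7 and 19.7 CPM in the WT libraries, against 27.4, 23.9 and 30.5 CPM in KO, a log2 fold change of 0.61 ± 0.14 (SE). For Gata3 the WT levels were 10.4, 12.0 and 12.9 CPM and the KO levels 14.5, 15.6 and 18.6 CPM, a log2 fold change of 0.47 ± 0.12 (SE). For both genes WT replicate 1 was the lowest library and KO replicate 3 the highest, and the groups did not overlap. The gap was narrower for Gata3, whose highest WT library and lowest KO library were 12.9 and 14.5 CPM.

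Gata4 and Gata6 were close to undetected. Gata4 (ENSMUSG00000021944, chromosome 14), the usual partner of FOG2 in heart and gonad, had 2, 1 and 1 reads in the WT libraries and 2, 0 and 3 in the KO libraries. Gata6 (ENSMUSG00000005836, chromosome 18), a regulator of endoderm and heart, had 2, 5 and 1 reads in WT and 7, 7 and 8 in KO. A count of 3 reads, the upper limit that a count of 0 allows, corresponds to 0.028 to 0.035 CPM in these libraries, for counting error only. All 3 KO libraries were above that for Gata6, as was WT replicate 2, and the Gata4 reads were at or below it in every library. Both genes were removed by the filter on low counts, so 4 of the 6 members entered the fit. Fitted without the filter, Gata6 had a log2 fold change of 1.45 ± 0.77 (SE) and Gata4 one of 0.31 ± 1.27 (SE), and neither passed the threshold.

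**Figure D1:**
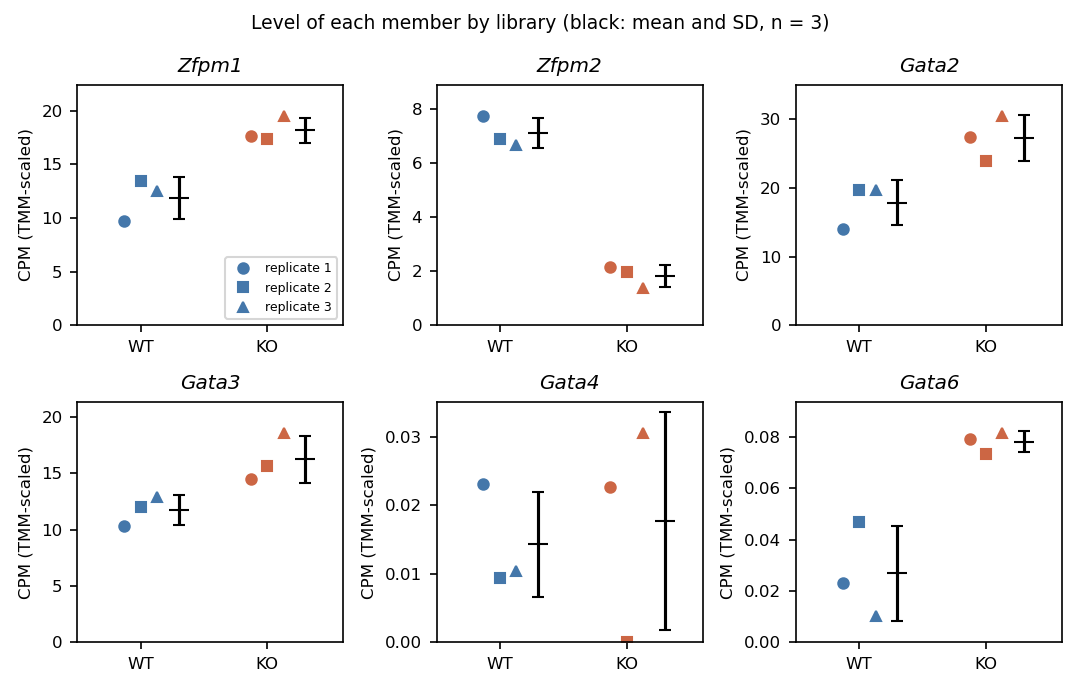
Level of each of the 6 genes in TMM-scaled CPM (vertical axes, linear from 0, scaled separately) in the WT and KO libraries; symbols are replicates 1 to 3 and black marks are the mean and SD of 3 libraries. Zfpm2 falls from 6.68 to 7.75 CPM in WT to 1.39 to 2.17 CPM in KO, Zfpm1, Gata2 and Gata3 are higher in every KO library, and Gata4 and Gata6 stay below 0.1 CPM.

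All 4 members in the fit passed a Benjamini-Hochberg adjusted p of 0.05 in edgeR's quasi-likelihood test, 3 higher and 1 lower. Of all tested genes 21% were called, 12.0% higher and 9.08% lower. All 4 also had groups that did not overlap, which was so for 41.9% of tested genes. Since the set was picked with this contrast known, nothing is read from these counts.

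The libraries also differed in sex-linked genes, in part along genotype. Xist, transcribed from the inactive X, reached 507 and 606 CPM in KO replicates 2 and 3 and at most 0.683 CPM in the other 4 libraries, and the Y-linked gene Ddx3y ran the opposite way. The comparison of KO replicate 1 with WT, in which no library was Xist-positive, gave log2 fold changes of -1.71 for Zfpm2, 0.57 for Zfpm1, 0.62 for Gata2 and 0.31 for Gata3. Zfpm2 passed the threshold there and the other 3 did not, and a term for the Xist-positive libraries gave the same outcome. The Gata3 call was also lost without WT replicate 2 (log2 fold change 0.48) and without KO replicate 3 (0.36).

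**Figure D2:**
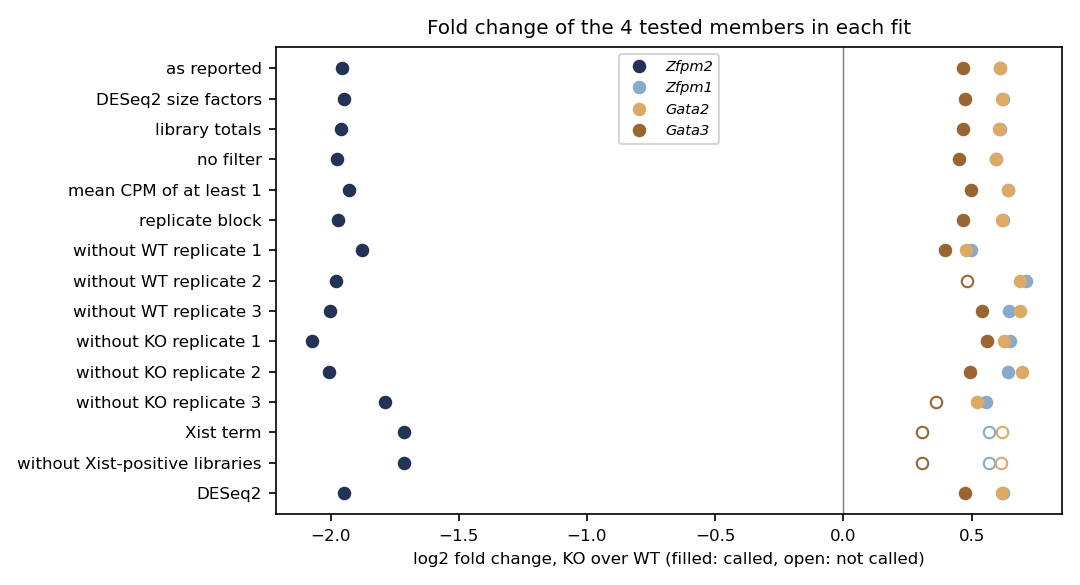
Log2 fold change of KO over WT (horizontal axis) for the 4 tested members in the reported fit and 14 alternatives (rows); filled points passed an adjusted p of 0.05 and open points did not. Zfpm2 stays between -2.07 and -1.71, Zfpm1 between 0.50 and 0.71, Gata2 between 0.48 and 0.70 and Gata3 between 0.31 and 0.56.

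Compared per exon length, the 3 higher members were at similar levels. In WT the means were 3.39 ± 0.560 RPKM (CPM per kilobase of merged exons; SD, n = 3) for Zfpm1, 3.31 ± 0.603 RPKM for Gata2 and 2.95 ± 0.328 RPKM for Gata3, with overlapping ranges. Zfpm2 was at 0.745 ± 0.0593 RPKM, below all of them. In KO the means were 5.19 ± 0.332 RPKM for Zfpm1, 5.05 ± 0.613 RPKM for Gata2, 4.09 ± 0.523 RPKM for Gata3 and 0.192 ± 0.0423 RPKM for Zfpm2. Zfpm1 and Gata2 overlapped in KO, as did Gata2 and Gata3, whereas every Zfpm1 value lay above every Gata3 value. With the longest transcript as the length, Gata2 came first in both groups, at 5.00 RPKM in WT and 7.63 RPKM in KO, ahead of Gata3 (3.66 and 5.05) and Zfpm1 (3.51 and 5.36), so the order of the upper 3 rests on the choice of length.

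The makeup of the FOG pair shifted toward Zfpm1. Zfpm2 held 22.7%, 15.8% and 16.4% of the summed FOG RPKM in WT replicates 1 to 3 and 4.32%, 3.96% and 2.54% in KO replicates 1 to 3. The Zfpm1 to Zfpm2 ratio was 3.41, 5.33 and 5.09 in WT and 22.1, 24.3 and 38.4 in KO. Summed FOG RPKM was higher in KO (5.38 ± 0.292) than in WT (4.14 ± 0.508; SD, n = 3 each). With the longest transcript as the length, the mean Zfpm2 share was 26.3% in WT and 5.62% in KO.

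The makeup of the GATA family did not separate the groups. Gata2 held 49.97%, 54.8% and 52.9% of summed GATA RPKM in WT and 58.0%, 52.9% and 54.7% in KO, and Gata3 held nearly all of the rest. The Gata2 to Gata3 ratio was 1.11 ± 0.106 in WT and 1.24 ± 0.134 in KO, with overlapping libraries. Summed GATA RPKM was 6.27 ± 0.914 in WT and 9.15 ± 1.04 in KO. Gata4 and Gata6 together stayed below 1% of the sum in each library.

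**Figure D3:**
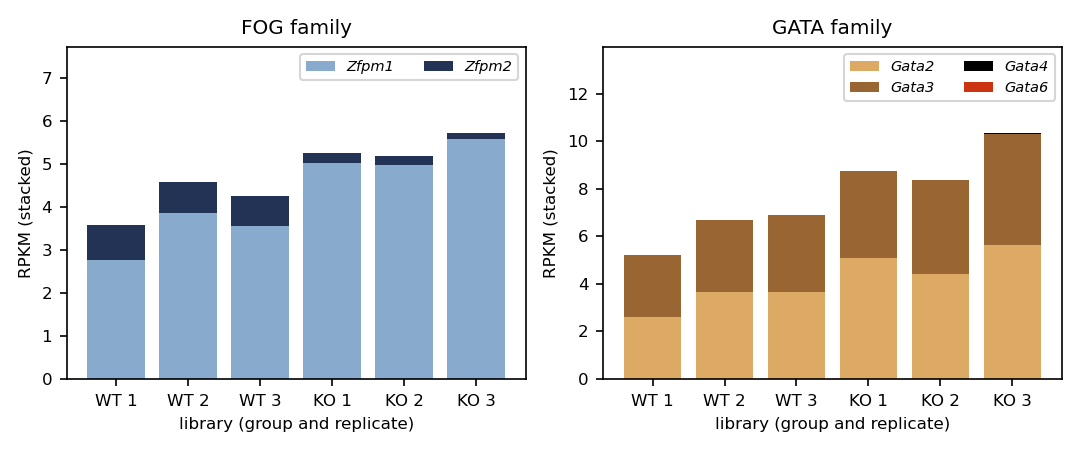
Stacked RPKM of the FOG genes (left) and of the GATA genes (right) in each library (horizontal axis, group and replicate). The dark Zfpm2 part shrinks from 15.8% to 22.7% of the FOG sum in WT to 2.54% to 4.32% in KO, while Gata2 holds between 49.97% and 58.0% of the GATA sum in all 6 libraries.

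The members also varied together across libraries. Over the 6 libraries, log2 CPM of Zfpm1 and Gata2 had a Pearson r of 0.981, Zfpm1 and Gata3 one of 0.942, and Zfpm2 and Gata3 one of -0.934. With the group means removed, r was 0.936 for Zfpm1 and Gata2, 0.763 for Zfpm1 and Gata3 and -0.914 for Zfpm2 and Gata3. It was 0.781 for Gata2 and Gata3, and weaker for Zfpm2 with Gata2 (-0.612) and with Zfpm1 (-0.581). Libraries low in Zfpm1 within a group thus tended to be low in Gata2. The 6 points share library, depth and scaling factor for both genes, so these values are a description.

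Likeness to each member was measured as Pearson r of log2 CPM over the 6 libraries, among 12547 other genes with a mean of at least 1 CPM. An r above 0.99 was reached by 32 genes with Zfpm1, 27 with Zfpm2, 27 with Gata2 and 3 with Gata3. The 5 closest to Zfpm2 were Ccz1 (r = 0.999), Xrcc5 (0.998), Rbm7 (0.997), Atrnl1 (0.997) and Nme1 (0.996), whose log2 fold changes of -0.40 to -0.16 were far smaller than that of Zfpm2. For Zfpm1 the 3 closest were the inositol trisphosphate receptor gene Itpr3 (r = 0.999), the growth factor gene Tgfb3 (0.998) and Samd4b (0.997). Gata2 was closest to Scamp3 (0.997), Steap3 (0.996) and Atp2b4 (0.996), and genes close to Gata3 included Dcaf12l1 (0.995) and Flot1 (0.992).

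No other GATA factor took a measurable level. Gata1, the blood-lineage factor that FOG1 is named for, had 0 reads in all WT libraries and 1 read over the KO libraries, and Gata5 had none in any library. Of the wider GATA-type zinc finger genes, Trps1, a repressor with a single GATA-type finger, averaged 19.8 ± 2.72 CPM for WT and 17.2 ± 0.683 CPM for KO (not called). Gatad1 was at 108 ± 2.44 and 102 ± 3.08 CPM and Zglp1, a germ-cell factor, at 0.348 ± 0.0266 and 0.234 ± 0.0431 CPM, neither called. Among the 4 tested genes of this list 1 was called, beside 21% of all tested genes. This was Rere, a corepressor with a GATA-type finger, which was higher in KO (103 ± 10.2 to 127 ± 8.53 CPM, edgeR adjusted p = 0.029). That call was lost without WT replicate 3, KO replicate 1 or KO replicate 3 and in both fits that deal with Xist. Without WT replicate 3, 1 other gene of this list was called lower, beside 19.1% of all tested genes called.

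The corepressors that FOG proteins recruit changed in both directions by small amounts. Of 16 NuRD and CtBP genes, all tested, 1 was higher, 4 were lower and 11 did not pass the threshold, and the median log2 fold change was 0.00 beside -0.01 over all tested genes. Of all tested genes 21% were called, and 9.36% to 20.9% when single libraries were left out. The histone-binding subunit gene Rbbp4 fell from 259 ± 15.4 to 191 ± 17.8 CPM (log2 fold change -0.44 ± 0.09, edgeR adjusted p = 0.00472). Cdk2ap1, a small NuRD subunit, fell from 46.0 ± 2.7 to 35.1 ± 2.72 CPM, and the remodeller Chd3 from 305.0 ± 4.05 to 255 ± 16.6 CPM. Mta3 rose from 41.3 ± 4.70 to 54.5 ± 4.45 CPM (log2 fold change 0.40 ± 0.10). Ctbp1 and Ctbp2 were at 120.2 ± 20.3 and 104 ± 9.04 CPM in WT, against 112 ± 0.608 and 115 ± 4.29 CPM in KO, neither called. The number called in this list was 1 without KO replicate 1, 2 without KO replicate 3, 3 without WT replicate 2 or KO replicate 2, 8 without WT replicate 1, and 0 in both fits that deal with Xist, where 6 (Xist term) and 5 (Xist-positive libraries left out) had an unadjusted p under 0.05 in edgeR.

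Partners that bind DNA with GATA factors or bridge them were mixed as well. Of 26 genes, 19 were tested, with 5 higher, 2 lower and a median log2 fold change of -0.03. Over all tested genes the share called was 21%, with 9.36% to 20.9% when single libraries were left out and 6.62% with the Xist term. Lmo1, a LIM-only bridging protein, fell from 25.4 ± 4.52 to 17.4 ± 0.57 CPM (log2 fold change -0.55 ± 0.12, edgeR adjusted p = 0.00963). The higher genes named by the rule were at low levels. Hand1, a heart and trophoblast factor, went from 0.0692 to 0.281 CPM (20 reads over the WT libraries and 78 over the KO libraries), Mef2c from 0.180 to 0.390 CPM and Spi1, a myeloid factor, from 0.961 to 1.61 CPM. Nr2f2 (COUP-TFII), a nuclear receptor that FOG2 binds, averaged 28.3 ± 2.13 CPM for WT and 24.4 ± 1.5 CPM for KO, with overlapping libraries and no call. The cardiac partners Tbx5, Nkx2-5 and Hand2 had no reads in any library. Leaving out single libraries gave 1 (KO replicate 1) to 6 calls (WT replicate 1) in this list, with 2 without KO replicate 3, 3 without WT replicate 2 and 4 without WT replicate 3 or KO replicate 2. The fit with the Xist term called Hand1 and Mef2c, and the fit without the Xist-positive libraries Hand1 alone.

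FOG2 also binds the p85 regulatory subunit of PI3-kinase. Of 6 PI3-kinase subunit genes 1 was higher and 1 lower, beside 21% of all tested genes called (9.36% to 20.9% when single libraries were left out). Pik3r1, the main p85 gene, averaged 38.9 ± 3.69 CPM for WT and 36.1 ± 0.617 CPM for KO, with no call. Pik3r3 fell from 38.2 ± 1.86 to 31.1 ± 3.42 CPM, a call lost in 9 of the 14 alternatives. Pik3cd, the leukocyte catalytic subunit, rose from 0.677 ± 0.106 to 1.20 ± 0.0807 CPM, a call lost without WT replicate 2 and in both fits that deal with Xist. Leaving out WT replicate 2 gave 0 edgeR calls in this list (4 at an unadjusted p under 0.05), leaving out WT replicate 3 gave 3, and leaving out WT replicate 1, KO replicate 1 or KO replicate 2 gave 1 each.

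Genes known as targets of GATA4 and GATA6 in heart, gonad and endoderm were called in 6 of 17 tested genes (26 listed), 4 higher and 2 lower, with a median log2 fold change of 0.02. The share called over all tested genes was 21%. Lamc1, a laminin chain of the endodermal basement membrane, rose from 143 ± 1.16 to 198 ± 4.27 CPM (log2 fold change 0.46 ± 0.07, edgeR adjusted p = 0.000828) and was called in all 14 alternatives. Hnf4a, a factor of liver and proximal tubule, rose from 0.267 ± 0.0702 to 1.19 ± 0.803 CPM (log2 fold change 2.17 ± 0.44). Its KO libraries were spread widely, at 0.567, 0.914 and 2.10 CPM, and the log2 fold change was 1.48 without KO replicate 3 and 1.09 in both fits that deal with Xist, where it was not called. Inhbb, the inhibin beta-B chain, fell from 19.4 ± 1.38 to 13.3 ± 0.183 CPM, and the steroidogenic enzyme gene Cyp11a1 from 3.48 ± 0.430 to 1.99 ± 0.514 CPM. The heart genes Nppa, Myh6, Myh7 and Actc1 had at most 6 reads summed over the libraries of either group. In the fits that deal with Xist, Lamc1 was the 1 gene called.

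Genes known as targets of GATA2 and GATA3 were called in 5 of 16 tested genes (21 listed), 3 higher and 2 lower, with a median log2 fold change of 0.25. The share called over all tested genes was 21%, with 9.36% to 20.9% when single libraries were left out and 6.62% with the Xist term. Foxa1, a pioneer factor that acts with GATA3 in breast epithelium, rose from 4.18 ± 0.324 to 6.90 ± 0.588 CPM (log2 fold change 0.72 ± 0.12, edgeR adjusted p = 0.00214). Ret, the receptor that Gata3 maintains in the nephric duct, rose from 5.51 ± 0.258 to 7.61 ± 1.31 CPM, and the endothelial receptor gene Kdr, which is also in the endothelial marker list, from 1.59 ± 0.415 to 4.2 ± 1.23 CPM. Il1rl1, the IL-33 receptor gene that GATA factors drive in mast cells and type 2 lymphocytes, was abundant and fell from 482 ± 53.4 to 338 ± 40.2 CPM. The fit with the Xist term called Foxa1, Kdr, Ret and Vwf. Vwf, like Kdr, is also in the endothelial marker list, and it was not called in the reported fit. The Ret call was lost without WT replicate 2, WT replicate 3 or KO replicate 1, and 3 genes were called in this list without WT replicate 2 and 3 without WT replicate 3.

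Among regulators of the nephric duct and early nephron, 4 of 14 tested genes were higher and 1 was lower, with a median log2 fold change of 0.28. Beside this, 21% of all tested genes were called, with 9.36% to 20.9% when single libraries were left out and 6.62% with the Xist term. Tfap2a, a factor of the distal nephron, rose from 20.8 ± 1.09 to 35.0 ± 1.72 CPM (log2 fold change 0.75 ± 0.08, edgeR adjusted p = 0.000221). Pax2, which lies upstream of Gata3 in the nephric duct, rose from 44.6 ± 7.17 to 63.4 ± 10.7 CPM, while Pax8 stayed at 147 CPM in both groups. Grhl2, an epithelial factor, fell from 95.4 ± 4.76 to 73.1 ± 2.29 CPM. Wt1, which is also in the podocyte marker list, rose from 1.26 ± 0.228 to 2.18 ± 0.725 CPM with overlapping groups, a call lost in 7 alternatives. In the fits that deal with Xist, Tfap2a was the 1 gene called. The Pax2 call was also lost without KO replicate 3, and 3 genes were called in this list without WT replicate 1, WT replicate 2, KO replicate 1 or KO replicate 3.

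Together the 7 lists held 118 genes, of which 92 were tested, 19 were higher and 12 lower. That is 33.7% called, beside the 21% of all tested genes. The lists were written with earlier results of these data known, so this share is a description and no test of the pathway. The share fell with that of all genes when libraries were left out, to 17.2% beside 9.36% without KO replicate 1, 18.5% beside 10.8% without KO replicate 3, 18.3% beside 14.3% without WT replicate 2 and 7.53% beside 4.88% without the Xist-positive libraries. The median log2 fold change of the 92 genes was 0.03.

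**Figure D4:**
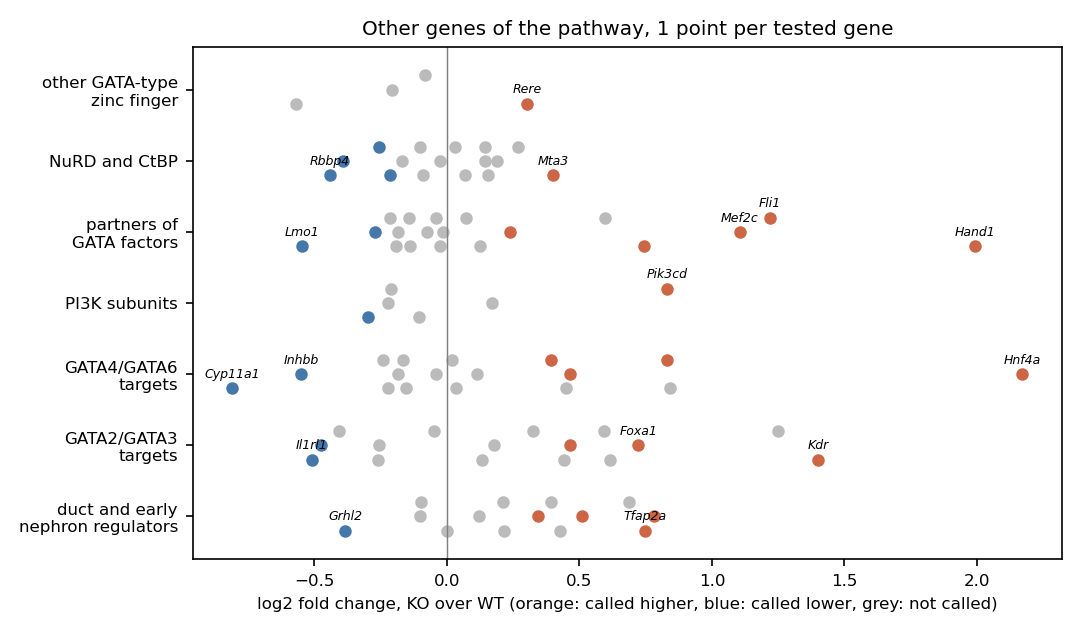
Log2 fold change of KO over WT (horizontal axis) for each tested gene of the 7 lists (rows); orange points were called higher, blue points lower and grey points neither. Points lie on both sides of 0 in every list, and the largest values, Hnf4a and Hand1, belong to genes at low levels; that of Hnf4a is 1.48 without KO replicate 3.

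The genes around the members were called at a share close to that of all genes. For each member the 4 nearest protein-coding genes on each side were taken, 48 in all, of which 35 were tested and 6 were called (17.1%, beside 21% of all tested genes), 5 higher and 1 lower. Around Zfpm2, which sits in a gene-poor stretch, 3 of 8 neighbours were expressed well enough to test. Lrp12, whose start lies 711 kb before that of Zfpm2, fell from 37.6 ± 1.48 to 31.6 ± 0.259 CPM (log2 fold change -0.25 ± 0.08, edgeR adjusted p = 0.0375). That call was lost in 8 of the 14 alternatives: with the replicate block, without WT replicate 2, WT replicate 3 or any 1 of the KO replicates, and in both fits that deal with Xist. Oxr1, an oxidation resistance gene on the other side, was at 122 ± 9.81 and 129 ± 6.29 CPM and was not called, and Angpt1, at 0.0691 and 0.137 CPM, was not called either. The other neighbours, 9330182O14Rik, Dpys, Dcstamp, Abra and Rspo2, were below 0.1 CPM in both groups. The calls around the other members were Zc3h18 beside Zfpm1, Rab7 and Eefsec beside Gata2, and Ctsb and Fam167a beside Gata4, all higher, with log2 fold changes of 0.27 to 0.57. Ctsb and Fam167a were called in all 14 alternatives, while the calls of Rab7, Zc3h18 and Eefsec were lost in 6, 7 and 9. The number of neighbours called was 2 without KO replicate 1 or KO replicate 3, 3 without KO replicate 2, and 2 in both fits that deal with Xist.

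**Figure D5:**
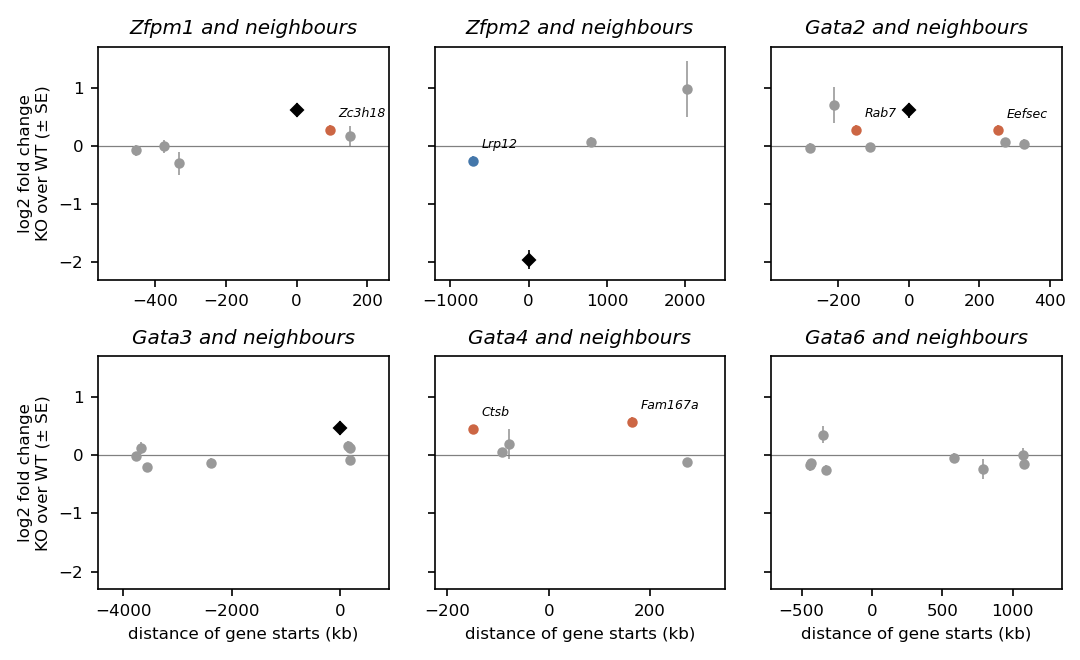
Log2 fold change of KO over WT with SE (vertical axes) for the tested neighbours of each member against the distance between gene starts in kb (horizontal axes, negative toward lower coordinates); black diamonds are the member itself, orange and blue points were called higher and lower and grey points were not called. Zfpm2, at -1.95, stands far below its 3 tested neighbours, which lie between -0.25 and 0.98.

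Genes that overlap the members on the genome and were counted had few or no reads. Gm49524, Gm49525 and Gm49526, which overlap Zfpm2 on its strand, were not among the counted genes. On the opposite strand of Gata3, 4930412O13Rik had 10, 14 and 14 reads in WT and 13, 25 and 32 in KO, and the antisense gene Gm13256 at most 2 in any library. The overlapping 9230102O04Rik, on the strand of Gata3, had 4 to 16 reads. Whether the counts use strand is not given in the sources used here. Reads of opposite strands may therefore have been added together at this locus, where Gata3 itself had 894 to 1823 reads per library. The long model Gm20388, which spans Zfpm1, had no reads.

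The labelled cell type was checked by its markers, and markers of other cell types that express GATA or FOG genes were set beside the results. All 10 markers of tubule epithelium were detected, with a summed level of 7544 to 9013 CPM for WT and 9044 to 9176 CPM for KO, of which Krt8 and Krt18 held over 50% in both groups. In the reported fit 2 of these 10 were called higher in KO and 0 lower. Markers of the principal cell of the collecting duct, where Gata2 and Gata3 are expressed, were higher in 5 of 8 tested genes and lower in 1, and their sum went from 17.5 to 21.3 CPM over the WT libraries to 33.1 to 36.8 CPM over the KO libraries. The defining water channel gene Aqp2 had 34 reads over the WT and 25 over the KO libraries, and the vasopressin receptor gene Avpr2 had 0 and 2. Endothelial markers were higher in 6 of 11 tested genes, with sums of 17.9 to 19.4 CPM for WT and 27.1 to 38.6 CPM for KO. Of all tested genes 12.0% were called higher and 9.08% lower. Markers of mesangium, fibroblasts and pericytes were higher in 7 of 11 (72.6 to 95.2 CPM for WT, 82.8 to 139 CPM for KO), leukocyte markers in 5 of 11 (30.5 to 36.0 and 45.1 to 54.6 CPM) and podocyte markers in 5 of 8 (105.0 to 107.6 and 171 to 206 CPM), with none lower. Markers of erythroid, megakaryocyte and mast cells were called in 0 of 5 tested genes in edgeR, with 0 at an unadjusted p under 0.05 and 0 calls in DESeq2, and 4 of the 12 (Hba-a1, Hbb-bs, Cpa3 and Fcer1a) had no reads. With the Xist term, edgeR called 4 principal cell, 6 endothelial, 4 mesangial, fibroblast and pericyte, 1 leukocyte and 2 podocyte markers, all higher. That fit called 6.62% of all tested genes. In that fit edgeR called 0 of 10 tubule markers (3 at an unadjusted p under 0.05). Leaving out KO replicate 1 gave 2 principal cell and 2 leukocyte calls and 0 tubule calls (3 at an unadjusted p under 0.05 in edgeR). Of all tested genes 9.36% were called there. Leukocyte calls numbered 3 of 11 without WT replicate 2, 3 of 11 without KO replicate 2 and 2 of 11 without KO replicate 3. There was 1 tubule call when either WT replicate 2 or KO replicate 2 was left out. The share called over all tested genes fell as well, to 14.3% without WT replicate 2 and 10.8% without KO replicate 3. Without KO replicate 2, 2699 of 17948 tested genes were called. The part of these cell types in the levels of Gata2, Gata3, Zfpm1 and Zfpm2 was not tested. In whole cultures a change in the number of cells of a type and a change in RNA per cell cannot be told apart.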

How the data were processed

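RNA of 6 cultures (3 KO, 3 WT) was sequenced, and the authors deposited 1 table of raw gene counts for each library, keyed by Ensembl identifier. The submitters' processing notes list Trimmomatic 0.38, STAR 2.7.1a, HTSeq 0.11.2 and mm10 and give no roles. Annotation release, strandedness and handling of multi-mapping reads: not given in the sources used here. Counts totalled 86078636 to 106974842 per library, and 18971 of 48526 genes had none. GENCODE M21 matched 48058 genes by identifier.

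The members and gene lists were chosen with earlier results of these data known. Counts were fitted with edgeR 4.0.16 in R 4.3.3 (filterByExpr, TMM, quasi-likelihood test, genotype as the term), with Benjamini-Hochberg adjustment over 17571 genes and a threshold of 0.05. The standard error of a log2 fold change was its size divided by the square root of F. CPM use TMM-scaled library sizes, and RPKM the merged exon length. Correlations use log2 CPM with a prior count of 2. The scripts were tested on simulated counts. Replicates differed by 22.7 to 77.1 chi-square units per degree of freedom, so none is a copy. Alternatives were DESeq2 size factors, library totals, 2 other filters, DESeq2 1.42.0, a replicate block, each library left out, and 2 fits for libraries with Xist above 10 CPM (a model term, and leaving them out). Both of these 2 fits compare KO replicate 1 with WT, so they are not separate checks.

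Named genes are the 6 members, up to 4 called genes of smallest adjusted p from each pathway list, all other GATA-type genes, the neighbours of Zfpm2 and the genes of highest r with each member. One gene that this rule names is not reported here. Nr2f2, Pik3r1, Ctbp1, Ctbp2, Pax8, Vwf, Krt8, Krt18, Aqp2, Avpr2, the undetected heart genes and blood markers, the overlapping genes and the called neighbours of other members were added after their values were seen.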

Additional observations from a re-analysis of the deposited data

How the results depend on the processing

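All 4 tested members kept their direction in all 14 alternatives, and 48 of the 56 member values stayed on their side of the threshold. The other 8 were calls lost, 2 each for Zfpm1 and Gata2 and 4 for Gata3. The number of members called was 1 of 4 with the Xist term and 1 without the Xist-positive libraries. Over all genes these fits made 1163 and 907 calls, beside 3698 in the reported fit, and leaving out each library gave 1683 to 3766. Pathway genes called numbered 8 with the Xist term, 7 without the Xist-positive libraries and 16 to 29 when each library was left out, beside 31. Of those 31, 7 were called again with the Xist term, 6 without the Xist-positive libraries and 16 to 26 when each library was left out. Neighbours called numbered 2 with the Xist term, 2 without the Xist-positive libraries and 2 to 6 when each library was left out, beside 6. The cause of these losses was not tested; the fits rest on fewer samples or residual degrees of freedom, and without the Xist-positive libraries the lone KO library is assumed to vary like WT. The 23 named pathway genes kept their direction in all alternatives that tested them, and 6 of them were called in both fits that deal with Xist.

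Same-numbered KO and WT libraries did not deviate together (r = 0.0417, -0.146 and 0.0324 for replicates 1 to 3). With 3 libraries in each group these values cannot decide whether same-numbered samples were handled together, and the labels give only the number. With a replicate block 3594 genes, all 4 tested members, 29 pathway genes and 5 neighbours were called. Depth limits Gata4, with 4 reads over WT and 5 over KO, and Gata6, with 8 and 22.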
